A study of Mus musculus with 2 samples.

Results

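The Slc25 family of mitochondrial solute carriers was described in erythroblasts, the precursors that still have a nucleus on the way to red blood cells. Its members were taken as every protein-coding gene of both gene tables whose GENCODE mouse symbol begins with Slc25a and a digit. This gave 47 genes on 19 chromosomes, among 21461 nuclear protein-coding genes and 43346 gene rows in all. The cells were primary erythroblasts of male adult C57BL/6J mice of 5 to 6 weeks, with no treatment, allele or second condition named in the labels, whose linked isolation protocol is titled for bone marrow progenitors. Total RNA was sequenced in 2 libraries, each made from 1 ng of input with spike-in controls. The labels number these as biological replicates 1 and 2 under the same donor entry and do not say that the cells came from separate animals, so the spread between them may be technical. As both libraries form 1 group, there was no comparison of conditions and there are no p-values.

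Slc25 proteins sit mostly in the inner mitochondrial membrane, which is closed to most charged molecules, and each passes a small set of substrates between the cytosol and the matrix. They carry nucleotides, phosphate, coenzymes, carboxylates, amino acids and iron. In red cell precursors the family is known above all for supplying the mitochondrial steps of heme synthesis: mitoferrin brings in iron for the enzyme that inserts it into the porphyrin ring, and Slc25a38 is thought to bring in glycine for the first enzyme of the pathway.

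The libraries held 80806663 and 117032607 expected counts, estimates of reads per gene in which reads that fit several places are shared out. Of these, 4393962 and 6815842 fell to nuclear protein-coding genes, which held 4.68% and 5.10% of the TPM, a length-corrected level scaled to a fixed total over all rows of a library. Levels between genes are therefore given as TPM, and where named as rescaled TPM, which sets the nuclear protein-coding genes to that total and multiplies TPM by 21.4 in replicate 1 and 19.6 in replicate 2. The labelled cell type was checked against its markers. The erythroblast markers summed to 21195 and 22924 TPM, most of it from the globin genes. The highest of the others, Slc4a1, stood at 260 and 259 TPM, beside the neutrophil marker S100a9 at 664 and 831 TPM. Epor, Klf1 and Gata1 lay between 2.25 and 4.09 TPM. All 12 erythroblast markers (among them Hbb-bs, Hbb-bt, Hba-a1, Hba-a2, Alas2, Slc4a1, Epor, Klf1, Gata1, Tfrc and Kel) reached 1 TPM in each library. So did all 15 markers of the neutrophil lineage (S100a8, S100a9, Ngp, Camp, Ltf, Lcn2, Mpo, Elane, Prtn3, Ctsg, Mmp8, Mmp9, Retnlg, Ly6g and Cebpe), whose summed level was 2107 and 2425 TPM, and all 8 markers of monocytes and macrophages (Lyz2, Ly6c2, Csf1r, Ccr2, Cd68, C1qa, C1qb and Vcam1), at 213 and 248 TPM. Of the B lineage markers, among them Ighm, Cd79a and Cd79b, 1 of 4 did, and of the T cell markers Cd3d, Cd3e and Cd8a, 0 of 3, with Cd3d and Cd8a at 0 in both libraries. The part of these other cells in the Slc25 levels was not tested. In bulk RNA, fewer cells of a type and less RNA per cell cannot be told apart.

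A few carriers held nearly all of the family's RNA. The mitoferrin gene Slc25a37 alone carried 62.8% and 60.6% of the summed family TPM, and the highest 4 members, Slc25a37, Slc25a51, Slc25a39 and Slc25a5, carried 90.3% and 89.9%. The family summed to 275 TPM in replicate 1 and 290.1 TPM in replicate 2 (283 ± 10.7, SD, n = 2), which is 0.588% and 0.569% of the nuclear protein-coding TPM. Without Slc25a37 that share was 0.221% ± 0.00373.

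Detected, meaning at least 1 TPM in each library, were 8 of 47 members, where 14.5% of all nuclear protein-coding genes were detected. These 8 genes held 96.4% and 96.0% of the family TPM. At least 10 TPM in each library was reached by 4 members, against 1.98% of all nuclear protein-coding genes. Slc25a17, the carrier of coenzymes in the peroxisome membrane, passed 1 TPM in replicate 2 only, at 0.95 and 1.26 TPM, and so did the coenzyme A carrier Slc25a42, at 0.66 and 1.07 TPM. Of the 39 members not detected, 23 still had 10 or more reads in both libraries. In all, 31 members had that many reads, where 42.8% of nuclear protein-coding genes did, and 33 reached 1 rescaled TPM in both libraries, where 42.9% did. The median member stood at 0.22 and 0.30 TPM, beside 0.03 and 0.02 TPM for the median nuclear protein-coding gene.

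**Figure D1:**
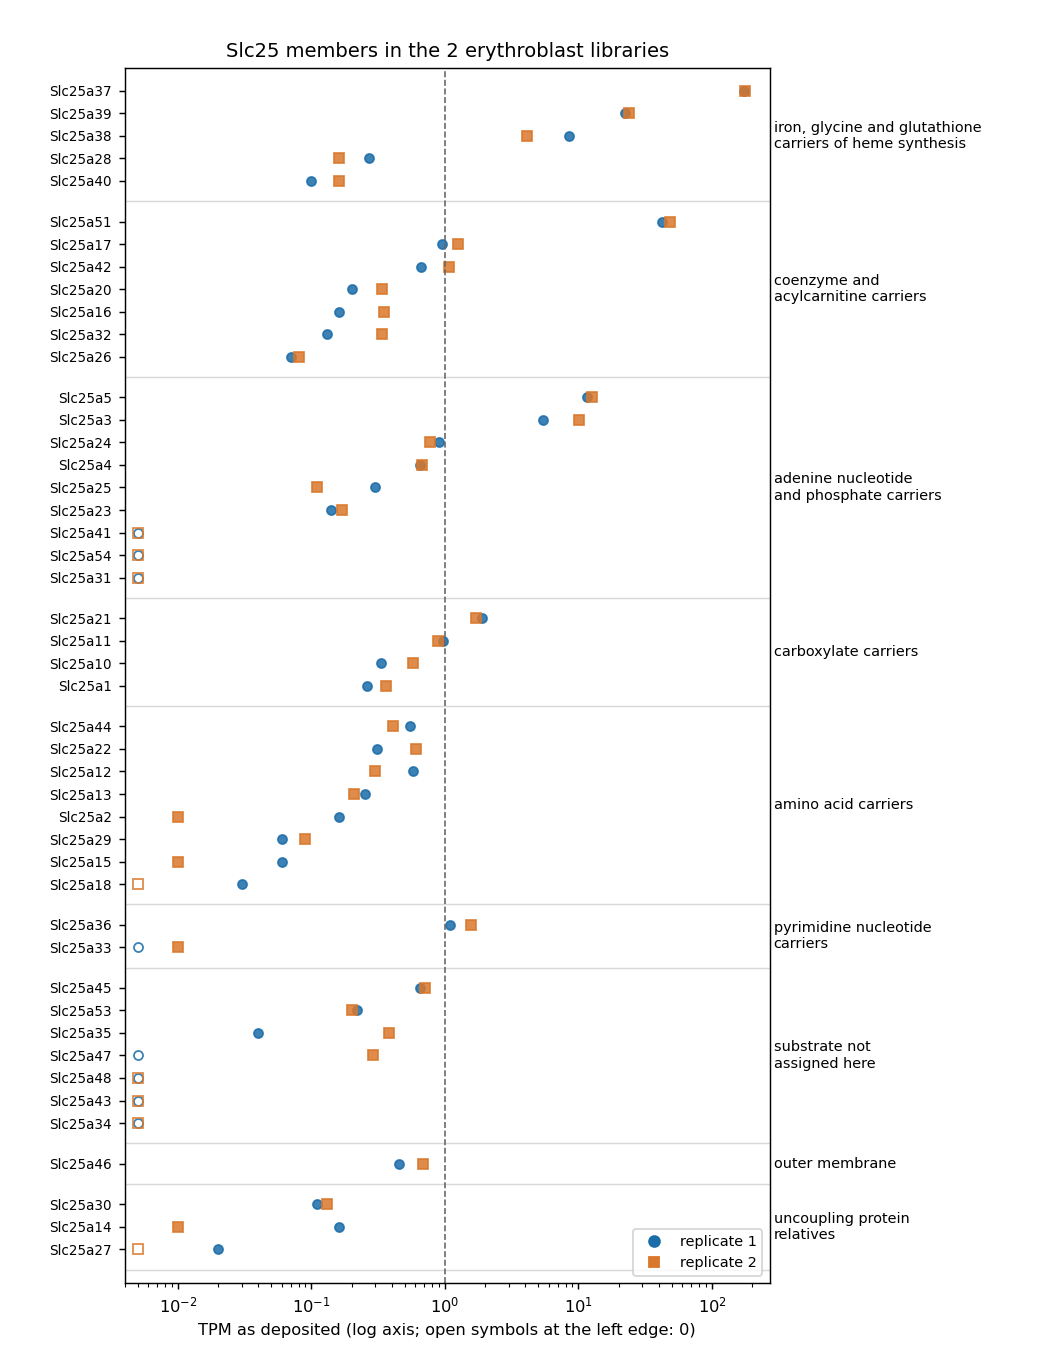
Level of the Slc25 members in the 2 libraries, with 1 of the 47 left out, grouped by the substrate carried. The horizontal log axis gives TPM as deposited, circles are replicate 1, squares replicate 2, open symbols at the left edge are values of 0, and the dashed line marks 1 TPM. Slc25a37 stands at the far right at 173 and 176 TPM, and 8 members lie right of the line in both libraries.

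The carriers tied to heme synthesis led the family, mainly through the single gene Slc25a37. The others of this group each stood below the coenzyme carrier Slc25a51, at 41.9 and 48.5 TPM. The 5 members that carry iron, glycine or glutathione summed to 204 and 204.4 TPM (204 ± 0.516, SD, n = 2), which is 74.1% and 70.5% of the family, and 3 of the 5 were detected. Slc25a37 (mitoferrin 1, the main iron importer of red cell mitochondria, mm10 chr14:69241848-69285112, minus strand) stood at 173 TPM in replicate 1 and 176 TPM in replicate 2, from 53105 and 79595 reads. It ranked 13 among the nuclear protein-coding genes in each library. Rescaled, these levels are 3693 and 3450 TPM. Of its exon bases, 6.33% overlap Gm27223 and Gm31748, which are annotated on the opposite strand at its first exon. In all, exons of 14 members overlap another gene on either strand.

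Slc25a39 (chr11:102402985-102407946, minus strand) imports glutathione, the thiol that protects iron-sulfur proteins. It stood at 22.1 and 24.0 TPM from 1400 and 2116 reads, and ranked 202 and 201. Slc25a38 (chr9:120110374-120124504, plus strand) stood at 8.48 TPM in replicate 1 and 4.15 TPM in replicate 2, from 640 and 491 reads. Slc25a38 was thus lower in the deeper library, whereas Slc25a37 and Slc25a39 were close in both.

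The other 2 genes of this group lay far below Slc25a37, Slc25a39 and Slc25a38. Slc25a28 (mitoferrin 2, the iron importer of most other tissues) stood at 0.27 and 0.16 TPM, from 27 and 23 reads. Slc25a40, the close relative of Slc25a39, stood at 0.10 and 0.16 TPM, from 18 and 41 reads. Both genes lay below 1 TPM in each library. Rescaled, Slc25a28 stood at 5.77 and 3.14 TPM and Slc25a40 at 2.14 and 3.14 TPM. The median nuclear protein-coding gene stood at 0.64 and 0.39 rescaled TPM.

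To show how far reads can tell the mitoferrin genes apart, their coding sequences were aligned. They were 72.1% identical, and the longest run of bases they share was 15, so that a longer read within the coding sequence holds a base that differs. The 90-base stretch around that run is printed from the GENCODE M21 transcripts, bases 583 to 672 of the coding sequence of Slc25a37 and 664 to 753 of Slc25a28. Capitals mark the 13 bases that differ.
Slc25a37-201: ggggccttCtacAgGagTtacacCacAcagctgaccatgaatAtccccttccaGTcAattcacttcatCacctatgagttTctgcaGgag
Slc25a28-201: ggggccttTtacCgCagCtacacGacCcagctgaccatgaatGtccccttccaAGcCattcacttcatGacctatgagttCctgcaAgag
Within each library Slc25a37 was 640-fold and 1099-fold higher than Slc25a28 per length. On the scale log2(TPM + 0.1) the difference was 9.14 ± 0.38 (SD, n = 2), far larger than its spread.

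Coenzyme carriers came next, through a single gene. Slc25a51 (chr4:45395923-45408766, minus strand), the carrier that brings NAD into mitochondria, stood at 41.9 TPM in replicate 1 and 48.5 TPM in replicate 2, from 9808 and 16340 reads, and ranked 90 and 81. It was the second highest member in both libraries. The 8 genes of its group, which also carry S-adenosylmethionine, folate, coenzyme A and acylcarnitines, summed to 44.1 and 52.2 TPM (48.2 ± 5.71, SD, n = 2), and no other of them was detected. Slc25a20, Slc25a16, Slc25a32 and Slc25a26 lay between 0.07 and 0.35 TPM.

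The 9 carriers of adenine nucleotides and phosphate summed to 19.0 and 24.4 TPM (21.7 ± 3.82, SD, n = 2), with 2 detected. Slc25a5 (chrX:36795651-36798807, plus strand), an exchanger of ADP and ATP, stood at 11.5 and 12.5 TPM from 915 and 1445 reads, close in both libraries. Slc25a3 (chr10:91116574-91124059, minus strand), which imports the phosphate used to make ATP, stood at 5.44 TPM in replicate 1 and 10.1 TPM in replicate 2, from 617 and 1051 reads. The calcium-regulated carriers of ATP-Mg and phosphate were below 1 TPM: Slc25a24 stood at 0.90 and 0.77 TPM, and Slc25a23 and Slc25a25 lay between 0.11 and 0.30 TPM. Slc25a4, the ADP and ATP exchanger known from heart and muscle, stood at 0.65 and 0.67 TPM from 79 and 126 reads. Slc25a31, the form known from testis, had 0 reads in both libraries, as did Slc25a41 and Slc25a54.

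Slc25a5 and Slc25a4 are the most alike of the 13 pairs of relatives compared, with 77.4% identity over the coding sequence and a longest shared run of 20 bases. The stretch that holds this run, bases 321 to 410 of both coding sequences, is printed from the same transcripts, with the 16 differing bases in capitals.
Slc25a5-201: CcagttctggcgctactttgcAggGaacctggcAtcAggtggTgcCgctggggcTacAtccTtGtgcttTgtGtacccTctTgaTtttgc
Slc25a4-201: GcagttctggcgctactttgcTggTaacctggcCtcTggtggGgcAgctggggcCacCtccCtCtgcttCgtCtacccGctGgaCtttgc
Slc25a5 was 17.7-fold and 18.7-fold higher than Slc25a4 per length, a difference of 3.99 ± 0.06 on the log2(TPM + 0.1) scale. Against the limit of 3 reads that a count of 0 allows, Slc25a5 was at least 412-fold and 652-fold higher than Slc25a31.

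Among the carboxylate carriers 1 of 4 was detected, and the group summed to 3.46 and 3.53 TPM. Slc25a21 (chr12:56712634-57197472, minus strand), a carrier of oxodicarboxylates, stood at 1.91 and 1.70 TPM from 286 and 419 reads. The oxoglutarate carrier Slc25a11 stood just under the threshold at 0.96 and 0.89 TPM, and the dicarboxylate carrier Slc25a10 and the citrate carrier Slc25a1 lay between 0.26 and 0.58 TPM. Of the carriers of pyrimidine nucleotides, Slc25a36 (chr9:97074961-97111157, minus strand) stood at 1.09 and 1.56 TPM from 292 and 413 reads, and Slc25a33 had 0 and 1 reads.

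Of the 8 amino acid carriers 0 were detected, where 14.5% of all nuclear protein-coding genes were. Together they summed to 2.00 and 1.64 TPM. The highest were Slc25a44, a carrier of branched-chain amino acids, at 0.55 and 0.41 TPM, the glutamate carrier Slc25a22 at 0.31 and 0.61 TPM, and the aspartate and glutamate exchanger Slc25a12 at 0.58 and 0.30 TPM, from 135 and 195 reads. By the posterior mean, Slc25a22 stood above 1 TPM in each library, at 1.33 and 1.44. By TPM, Slc25a13, Slc25a2, Slc25a29, Slc25a15 and Slc25a18 lay between 0 and 0.25. Also without a detected member were the 3 uncoupling protein relatives Slc25a30, Slc25a14 and Slc25a27, between 0 and 0.16 TPM. Slc25a46, a protein of the outer membrane, stood at 0.45 and 0.69 TPM. The 7 genes whose substrate was not assigned here summed to 0.91 and 1.58 TPM, with Slc25a45 highest at 0.65 and 0.71 TPM. Slc25a53 and Slc25a35 lay between 0.04 and 0.38 TPM. Of the exon bases of Slc25a35, 31.3% overlap Rangrf, and its 10.45 and 63.56 expected counts are not whole. The part of this overlap in its level was not tested.

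At the bottom of the family, 6 members had 0 reads in both libraries, namely Slc25a31, Slc25a34, Slc25a41, Slc25a43, Slc25a48 and Slc25a54, where 41.2% of all nuclear protein-coding genes had 0. For these 6 genes a count of 0 allows a level of up to 0.0129 to 0.0392 TPM in replicate 1 and 0.00878 to 0.0270 TPM in replicate 2, counting error only. A further 3, Slc25a18, Slc25a27 and Slc25a33, had 3 or fewer reads in each library. Slc25a47 had 0 reads in replicate 1 and 44 in replicate 2. Slc25a43, with 0 reads, lies 18.4 kb from the detected Slc25a5. In the other 3 pairs of members that lie within 100 kb of each other (Slc25a29 and Slc25a47, Slc25a41 and Slc25a23, Slc25a54 and Slc25a24) both genes stood below 1 TPM.

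The order of the 8 detected levels held up against the spread between the libraries at 4 of its 7 steps. Slc25a37 exceeded Slc25a51 by 1.95 ± 0.13 on the log2 scale (SD, n = 2), Slc25a51 exceeded Slc25a39 by 0.97 ± 0.07, Slc25a39 exceeded Slc25a5 by 0.94 in each library, and Slc25a38 exceeded Slc25a21 by 1.72 ± 0.61. The steps from Slc25a5 to Slc25a3 (0.70 ± 0.55), from Slc25a3 to Slc25a38 (0.32 ± 1.36) and from Slc25a21 to Slc25a36 (0.47 ± 0.48) were within their spread, taken as 2 SD. Slc25a38 lay above Slc25a3 in replicate 1 and below it in replicate 2.

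Related genes were compared in 13 pairs within each library. In 9 pairs the difference exceeded its spread, and in 8 of these the gene listed first was higher. Which gene is listed first was set by the list and carries no meaning, and the share over other pairs of genes was not computed. Slc25a31, Slc25a33 and Slc25a18 had 0 to 3 reads in each library, so the pseudocount sets much of their ratios and of the spread. Besides the pairs above, Slc25a39 exceeded Slc25a40 by 6.67 ± 0.18 on the log2(TPM + 0.1) scale (SD, n = 2), Slc25a36 exceeded Slc25a33 by 3.74 ± 0.24, and Slc25a22 exceeded Slc25a18 by 2.24 ± 0.83. Slc25a24 exceeded Slc25a23 by 1.87 ± 0.26 and Slc25a25 by 1.69 ± 0.52. In 1 pair the gene listed first was lower: Slc25a16, linked to coenzyme A, stood at 0.16 and 0.35 TPM, a difference from Slc25a42 of -1.46 ± 0.12. The size of these differences depended on the pseudocount and the estimate. With a pseudocount of 1 in place of 0.1, Slc25a22 exceeded Slc25a18 by 0.52, Slc25a36 exceeded Slc25a33 by 1.20, and Slc25a24 exceeded Slc25a23 by 0.67 and Slc25a25 by 0.61. Slc25a16 then stood at -0.57 against Slc25a42, and Slc25a37 at 7.17, Slc25a39 at 4.41 and Slc25a5 at 2.97 above Slc25a28, Slc25a40 and Slc25a4. By the posterior mean, Slc25a22 exceeded Slc25a18 by 3.58 and Slc25a24 exceeded Slc25a25 by 0.93. The other 4 pairs were within their spread: the aspartate and glutamate exchangers Slc25a13 and Slc25a12, the ornithine carriers Slc25a15 and Slc25a2, Slc25a30 and Slc25a14, and Slc25a35 and Slc25a34. Slc25a13 stood at -0.66 against Slc25a12 by TPM, but at -1.20 by the posterior mean, which exceeded its spread. Over the 13 pairs the coding sequences were 60.5% to 77.4% identical and shared runs of at most 11 to 25 bases.

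Next, the members with enough reads were compared between the libraries. Among the 17 members with a mean of at least 100 counts, 1 differed by more than 2-fold after TMM scaling of the counts, where 7.14% of the 5536 nuclear protein-coding genes with that many counts did (2.71% higher in replicate 1 and 4.43% higher in replicate 2). That gene was Slc25a38, with a log2 ratio of replicate 2 to replicate 1 of -1.02, or 2.03-fold higher in replicate 1. When counts were scaled by the total of all genes instead, its ratio was -0.91 and 0 of 17 members passed, where 7.7% of the 5536 genes did. That scaling moved the median log2 ratio of all these genes from 0.01 to 0.12. The median absolute log2 ratio of TMM-scaled counts was 0.11 over the 17 members and 0.29 over all these genes. By TPM the gap was smaller, at 0.21 and 0.32. By TMM-scaled counts Slc25a37 had a ratio of -0.06 and Slc25a51 of 0.09. The sign for Slc25a37 was not stable, as its ratio was 0.05 by the total of all genes. With 1 library against 1 these ratios have no replicate check.

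**Figure D2:**
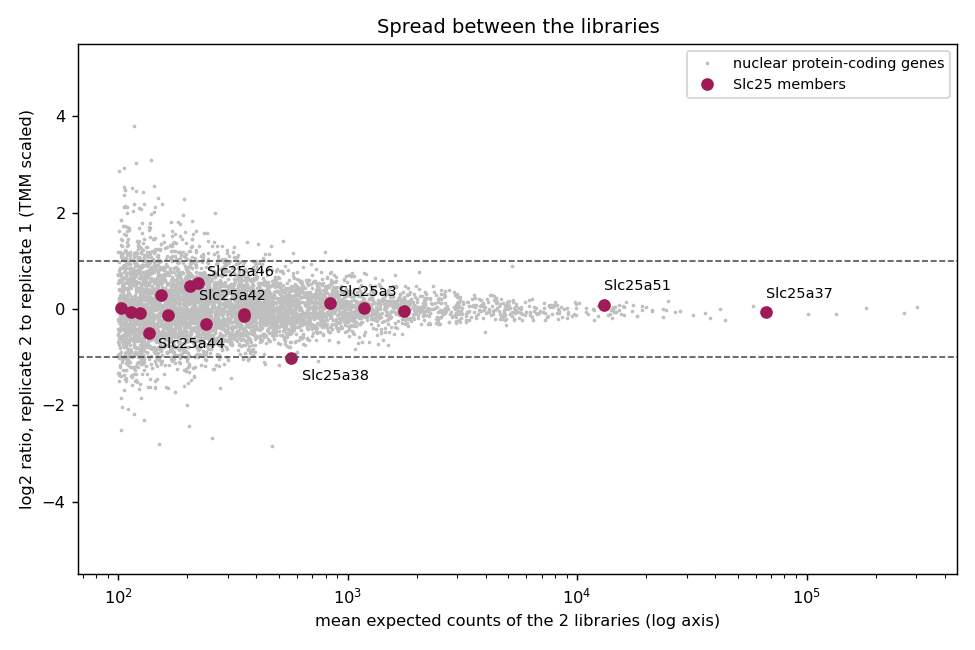
Log2 ratio of TMM-scaled counts, replicate 2 to replicate 1, against the mean expected count of the 2 libraries on a log axis. Grey points are nuclear protein-coding genes with a mean of at least 100 counts, large points the 17 Slc25 members among them, and dashed lines mark 2-fold. Slc25a38, at -1.02, is the member outside the lines.

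For some members the levels differed more than the reads, Slc25a3 first among them. The TPM of Slc25a3 was 1.86-fold higher in replicate 2, a log2 ratio of 0.88, but its scaled counts gave 0.12. The effective length behind its TPM was 1577 bases in replicate 1 and 979 in replicate 2. With 1 fixed length for both libraries, a choice made after seeing the data, its level was 6.63 and 7.85 TPM. Slc25a36 likewise had effective lengths of 3736 and 2489 bases, and its level at a fixed length was 1.29 and 1.27 TPM. For Slc25a12 the effective lengths were 3214 and 6200 bases, the log2 ratio was -0.77 by TPM and -0.11 by scaled counts, and the level at a fixed length was 0.394 and 0.395 TPM. Slc25a38 kept its difference at a fixed length, with 8.13 and 4.33 TPM.

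Transcripts of the 8 detected members were then compared by the deposited percent of the gene's TPM on each. A protein-coding transcript led in all 8 in both libraries, and the same one led in 7. The median leading share was 66.3% in replicate 1 and 64.8% in replicate 2 (65.5% ± 1.04, SD, n = 2). Neither these counts nor this median was computed over all detected nuclear protein-coding genes, so they cannot be read as particular to the family. Slc25a5 was carried almost wholly by Slc25a5-201, at 99.3% and 99.8%. Slc25a51-201 held 63.6% and 64.0% of its gene, and Slc25a51-204, annotated as a processed transcript without a coding frame, 30.6% and 32.4%. By share of expected counts, which is not corrected for length, Slc25a51-201 held 84.0% and 86.3% and Slc25a51-204 8.35% and 8.89%. The transcripts are 4433 and 1022 bases long. Slc25a39-205 held 59.5% and 65.6%, and Slc25a21-201 69.0% and 73.4%, beside the retained-intron transcript Slc25a21-204 at 15.9% and 26.6%.

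**Figure D3:**
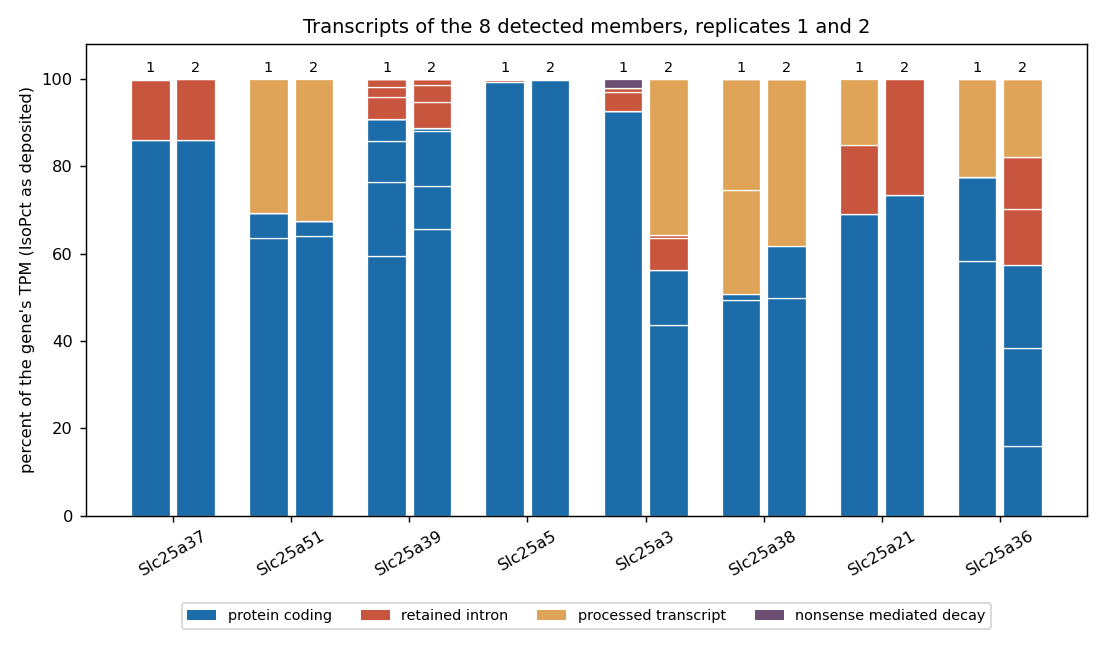
Percent of each detected member's TPM on each of its transcripts, replicate 1 left and replicate 2 right of each pair of bars, coloured by annotated transcript type. White lines part the transcripts. The bars of Slc25a37 are alike at 86.0% protein coding, and those of Slc25a3 differ, with 92.6% and 43.6% on the leading transcript.

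The reads of Slc25a37 were assigned mostly to a coding form and to one that keeps an intron. Slc25a37-201 held 86.0% of the gene's TPM in each library, and Slc25a37-203, annotated as a retained intron, 13.7% and 14.0%. The latter stood at 23.6 and 24.6 TPM, from 9845 and 15084 of the gene's reads. That level alone was close to that of the whole gene Slc25a39. The retained intron lies between exons 2 and 3, at chr14:69247638-69249393 on the minus strand, and is 1756 bases long. Reads across the ends of this intron were not counted. Whether the assigned reads came from RNA not yet spliced was not tested.

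The bases that tell these forms apart are shown from the GENCODE M21 transcripts. In the top line the splice joins exon 2 to exon 3, whose bases are in capitals. In the other lines capitals mark the intron, which begins with GT and ends with AG.
Slc25a37-201, exon 2 joined to exon 3 (mm10, from chr14:69247608-69249423): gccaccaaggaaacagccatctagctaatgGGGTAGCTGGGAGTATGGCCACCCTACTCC
Slc25a37-203, exon 2 into the intron (chr14:69249364-69249423): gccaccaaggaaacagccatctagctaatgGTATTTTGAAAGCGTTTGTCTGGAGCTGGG
Slc25a37-203, intron into exon 3 (chr14:69247608-69247667): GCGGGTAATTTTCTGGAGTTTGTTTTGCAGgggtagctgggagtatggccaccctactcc
Retained-intron transcripts took 9.90% and 10.2% of the TPM of the whole family (10.1% ± 0.221, SD, n = 2), beside 18.8% ± 0.562 over all nuclear protein-coding genes and 10.2% over these without the adult globins. Without Slc25a37 the family's share was 3.94% ± 0.606.

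The transcripts of Slc25a3 differed between the libraries. Slc25a3-201 held 92.6% of the gene in replicate 1 and 43.6% in replicate 2, from 535 and 684 reads. Slc25a3-205, a short processed transcript, held 0% and 35.8%, and Slc25a3-206 0% and 12.6%, from 0 and 161 reads. Slc25a3-201 and Slc25a3-206 carry alternative versions of exon 3, a choice known to give the phosphate carrier its tissue forms. The versions are 122 and 125 bases long and 63.1% identical over their aligned bases. They are printed below, minus strand, with capitals at bases that differ or have no partner.
Slc25a3-201 exon (chr10:91121922-91122043): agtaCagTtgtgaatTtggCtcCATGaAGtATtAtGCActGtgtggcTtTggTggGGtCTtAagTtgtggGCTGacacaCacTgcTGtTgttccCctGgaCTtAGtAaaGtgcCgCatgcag
Slc25a3-206 exon (chr10:91122207-91122331): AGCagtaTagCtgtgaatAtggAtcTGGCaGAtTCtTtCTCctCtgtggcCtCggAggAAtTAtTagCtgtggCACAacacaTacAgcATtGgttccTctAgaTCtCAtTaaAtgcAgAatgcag
Reads were thus assigned to Slc25a3-206 in replicate 2 only, and Slc25a3-201 led in both libraries.

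Slc25a38 and Slc25a36 also had split forms. Slc25a38-201 held 49.4% and 49.8% of its gene, and the processed transcript Slc25a38-203 23.9% and 38.3%. A second processed transcript, Slc25a38-207, held 25.4% in replicate 1 and 0% in replicate 2, on 55.5 and 0 reads. The leading coding form had 500 reads in replicate 1 and 359 in replicate 2, lower in the deeper library like the gene as a whole. By percent of TPM the leader of Slc25a36 changed: Slc25a36-202 held 58.3% and 16.0%, and Slc25a36-203, which led in replicate 2, 19.2% and 22.4%. By share of the gene's expected counts it did not, since Slc25a36-202 led in both libraries with 79.5% and 32.6%, against 15.9% and 27.7% for Slc25a36-203.

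Genes that act with the carriers were counted the same way, from lists chosen with results of these data known. Of 11 mitochondrial partners in heme and iron handling 9 were detected, beside the 14.5% of all nuclear protein-coding genes. Alas2, the first enzyme of heme synthesis in red cells, stood at 175 and 183 TPM, next to Slc25a37 at 173 and 176 TPM. Fech, which inserts the iron, stood at 42.7 and 46.0 TPM, and the preceding enzymes Ppox and Cpox at 22.0 and 21.6 TPM and at 17.3 and 17.9 TPM. Among the lowest of the list was Clpx, a protease subunit that acts on the first enzyme, at 0.78 and 1.08 TPM.

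Of 5 family members with other symbols 2 were detected, where 14.5% of all nuclear protein-coding genes were. The uncoupling protein gene Ucp2 stood at 59.5 and 53.9 TPM, above Slc25a51 in both libraries. The outer membrane relatives Mtch2 and Mtch1 stood at 4.37 and 3.22 TPM and at 1.28 and 0.59 TPM, while Ucp3 had 13 and 0 reads and Ucp1 0 in both. Of the 13 genes that import carrier proteins into mitochondria 3 were detected, beside the same 14.5%. These were Tomm22 at 2.98 and 3.42 TPM, Timm10 at 2.10 and 1.49 TPM and Tomm70a at 1.27 and 1.96 TPM. Timm8b followed at 0.99 and 1.40 TPM, and Timm22 and Agk, parts of the inner membrane insertion complex, were lowest at 0.21 to 0.30 TPM. All 13 reached 1 rescaled TPM in both libraries, where 42.9% of all nuclear protein-coding genes did.

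Of 15 other mitochondrial transporters 7 were detected, beside 14.5% of all nuclear protein-coding genes. Mpc2, a subunit of the pyruvate carrier, led at 12.3 and 10.2 TPM, followed by the outer membrane channels Vdac2 at 4.25 and 4.68 TPM and Vdac3 at 3.05 and 4.98 TPM. The sideroflexins Sfxn2 and Sfxn5 were lowest, at 0.04 and 0.10 TPM and at 0.03 and 0.01 TPM.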

How the data were processed

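Total RNA-seq of 2 mouse erythroblast libraries came with a gene table and a transcript table each. Per the labels, values refer to mm10, and per the deposited read-me the annotation was GENCODE M4. Which aligner and quantifier were used, and whether strand was counted, is not given in the sources used here. Expected counts as deposited are the authors' estimated counts and need not be whole (4 members had values more than 0.005 from a whole number in either library). The authors scaled the deposited TPM over all rows, mitochondrial rRNA included. Deposited FPKM, the posterior mean TPM (a deposited score) and the deposited percent of each gene's TPM per transcript were used as the file headers name them. Of 43346 gene rows, 42462 were matched by Ensembl identifier to GENCODE M21 on the same build, which gave symbols, coordinates and transcript sequences.

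The members, gene lists and alternatives were chosen with earlier results of these data known. Every detected member, every member of a listed pair, each marker, each member past 2-fold, and from each companion list up to 4 highest and 2 lowest genes are named. Some genes that this rule names are left out of the text. Values are mean ± SD of n = 2 libraries. A difference between 2 genes was called larger than the spread where its absolute mean exceeded 2 SD with the same sign in both libraries; TPM ratios of pairs used a pseudocount of 0.1. Counts were rounded for edgeR 4.0.16, whose TMM factors were 0.962 and 1.04 over 10012 genes kept by its filter, with a prior count of 2, and DESeq2 1.42.0 gave alternative size factors. The step that computes these ratios was tested on simulated counts that vary by counting noise alone. A count of 0 allows up to 3 reads. Without molecular identifiers, reads do not stand for separate molecules, so this limit holds for counting error alone. Coding sequences were aligned with Biopython 1.88. Protein and promoter sequences were not used here.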

Additional observations from a re-analysis of the deposited data

How the results depend on the processing

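The number of detected members depended on the unit and threshold. At 1 TPM 8 passed, where 14.5% of nuclear protein-coding genes did. At 1 rescaled TPM 33 passed and at 10 or more expected counts 31, where 42.9% and 42.8% did. At 0.5 TPM 14 passed, a cut for which the share over all genes was not computed. With a cut of 1, 7 passed by FPKM and 9 by the posterior mean, also without that share. Slc25a22 was the added member by the posterior mean. Leaving out either replicate gave 8 to 10 at 1 TPM. The family's share of nuclear protein-coding RNA (0.579%) was 1.55% by expected counts, 1.03% without the adult globins in the denominator and 0.221% without Slc25a37, with 0.569% to 0.588% over single replicates. The median member level (0.26 TPM) was 0.35 by the posterior mean and 0.345 over members above 0 in both libraries, with 0.22 to 0.30 over single replicates. Past 2-fold between libraries were 0 of 17 members when scaled by the total of all gene counts, where 7.7% of nuclear protein-coding genes passed. At a mean of at least 20 counts 6 of 31 members passed (5 higher in replicate 2) and with no filter 11 of 41, where 19.8% and 32.0% of nuclear protein-coding genes passed. The median leading transcript share (65.5%) was 62.2% by the posterior mean and 78.5% by expected counts, with 64.8% to 66.3% over single replicates. In rescaled TPM, 13 of 13 genes of carrier import and 13 of 15 other transporters passed 1, where 42.9% of nuclear protein-coding genes did. Over single replicates carrier import gave 3 to 4, family members with other symbols 2 to 3, and heme and iron partners 9 to 11. The causes were not tested. The ratio of Slc25a38 and those of the 9 pairs beyond their spread kept their sign under every alternative run, though the pair ratios shrank at a pseudocount of 1 (values in the report). Signs of small ratios between libraries turned for Slc25a37 (-0.06 to 0.05) and Slc25a39 (-0.05 to 0.06), and also for Slc25a11, Slc25a21 and Slc25a45, under the total of all gene counts, and by TPM for Slc25a36 (-0.15 to 0.48), Slc25a37, Slc25a39 and Slc25a45; Slc25a30 over Slc25a14, within its spread, went from 0.38 to -0.21 by the posterior mean and -0.31 without replicate 2. The number of pairs beyond their spread was 9 to 10 where it could be computed, since a single library has no spread. The fixed effective length was an alternative added after seeing the data. No paired comparison of conditions was possible because there is only 1 group. Depth limits the low members: 16 of 47 had under 10 reads in at least 1 library.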
